A study of Mus musculus with 4 samples.

Results

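The 10 genes described here handle iron in *in vitro* MDSCs, the immature myeloid cells obtained by culturing mouse bone marrow (BM) cells with GM-CSF. They are the metalloreductases *Steap3* and *Steap4*, the transferrin receptor *Tfrc*, the divalent metal transporters *Slc11a1* and *Slc11a2*, the iron exporter *Slc40a1*, the ferritin chains *Fth1* and *Ftl1*, the heme oxygenase *Hmox1* and the haptoglobin gene *Hp*. All 10 were found by symbol among the 24346 genes of the tables. *Steap4* was chosen by its higher FPKM with G-CSF in these same libraries, and the other 9 were chosen for their function with the results of the same contrast known. Their differences between the groups are therefore given as a description without p-values, and the tests concern iron and heme genes outside the list. BM cells of female C57BL/6J mice aged 6 to 8 weeks were cultured for 4 days with 40 ng/ml GM-CSF in both groups. G-CSF was added at 5 ng/ml for 2 libraries (G-CSF) and left out for 2 libraries (Control). No sort is described for the cells used for RNA-seq, so the libraries can mix the cell types that grow from BM cells. The number of mice behind each culture is not given in the sources used here. The study describes the 2 libraries of a group as biological replicates.

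Cells take up iron mainly as ferric iron bound to transferrin, which the transferrin receptor carries into endosomes. There, a metalloreductase of the STEAP family reduces it, and a divalent metal transporter moves it into the cytosol. Iron that is not used is stored in ferritin, a shell of heavy and light chains, or leaves the cell through ferroportin, the product of *Slc40a1*. Myeloid cells also take iron from hemoglobin: haptoglobin binds free hemoglobin, and heme oxygenase 1 opens the heme ring and releases the iron. Iron regulatory proteins, which bind RNA hairpins called iron-responsive elements (IREs) when iron is scarce, link these steps. An IRE in the 5′ UTR then blocks translation, and IREs in the 3′ UTR protect the transcript from decay.

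For each library, the files list a value per gene that was taken as FPKM (fragments per kilobase of transcript, scaled to the number of mapped reads). From the size of a single read in the low values, the libraries held about 12400000 to 15700000 mapped reads, and between 14674 and 14890 genes stood above 0. Of the 24346 genes, 12000 passed a filter on low values (10 or more estimated reads in 2 libraries, and 15 or more summed over all), among them all 10 iron handling genes, *Steap4* through its G-CSF libraries. The myeloid genes *Itgam*, *Ly6c2*, *S100a8* and *S100a9* stood at 395 FPKM or more in every library. Of the same list, *Cebpb* lay between 130 and 175 FPKM and *Ly6c1* between 9.70 and 11.6 FPKM, and *Ly6g* was not analysed here. One label names liver tissue as the source of RNA, whereas the methods name cultured cells. Of 8 liver genes, 6 (*Alb*, *Apoa1*, *Ttr*, *Fgb*, *Cyp3a11* and *Ahsg*) were listed at 0 in all 4 libraries, and the highest of the others, *Apoa2*, reached 1.42 FPKM. In bulk libraries, fewer cells of a type and less RNA per cell cannot be told apart.

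The IREs are shown because *Tfrc*, which had higher FPKM with G-CSF, and *Slc40a1*, *Fth1* and *Ftl1*, which had lower FPKM, carry them in different UTRs. The part of IREs in these FPKM differences was not tested. The transcripts of GENCODE M21 (GRCm38) were searched on the sense strand for CNNNNNCAGTGN followed by 5 bases that pair with the 5 bases before the loop, G-T pairs allowed. The pattern occurred 7 times in 4 of the 10 genes, and the other 6 held no match. It allows no unpaired base among these 5 pairs and no other loop, so an element that departs from it would be missed. The search therefore does not show that the other 6 genes lack IREs or that *Tfrc* holds only 4. The pattern was found in a UTR of 0.770% of 19877 protein-coding genes of the tables, in the 5′ UTR of 0.141% and in the 3′ UTR of 0.629%. The elements are printed 5′ to 3′ with 5 bases on either side, and capitals mark the 6-base loop.
Fth1: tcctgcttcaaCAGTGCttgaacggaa
Ftl1: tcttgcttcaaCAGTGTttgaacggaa
Slc40a1: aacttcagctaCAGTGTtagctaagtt
Tfrc, element 1: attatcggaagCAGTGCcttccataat
Tfrc, element 2: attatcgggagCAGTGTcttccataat
Tfrc, element 3: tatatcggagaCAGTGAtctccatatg
Tfrc, element 4: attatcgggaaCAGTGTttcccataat

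The elements of *Fth1* (chr19:9982733-9982759, plus strand), *Ftl1* (chr7:45459780-45459806, minus strand) and *Slc40a1* (chr1:45925466-45925492, minus strand) lie in the 5′ UTR, in exon 1 of the transcripts searched. The 4 elements of *Tfrc* lie in the 3′ UTR, in exon 19 of 19 on the plus strand of chromosome 16. They start at 32631220, 32631599, 32631664 and 32631711 and end at 32631246, 32631625, 32631690 and 32631737. The ferritin elements differed from each other at 2 of the 27 bases. The *Slc40a1* element differed from each of them at 14 bases. Among the *Tfrc* elements, 2 to 10 bases differed. A match of these letters is a description of the transcript and does not measure the binding of a protein.

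*Steap4* encodes a STEAP metalloreductase of the cell surface and endosomes that reduces iron and copper, and its gene spans chr5:7960457-7982213 on the plus strand (GRCm38). It was the least abundant of the 10 genes, with 0.254 and 0.144 FPKM in the Control libraries and 1.78 and 2.34 FPKM in the G-CSF libraries. About 10 and 6 reads stand behind the Control values, and 65 and 108 behind those with G-CSF. The lower G-CSF value exceeded the higher Control value, and the mean was 0.199 ± 0.0778 FPKM in Control and 2.06 ± 0.392 FPKM in G-CSF libraries (SD, n = 2 per group), 10.3 times as high. The log2 fold change on the log2(FPKM + 0.1) scale was 2.86 (standard error 0.270). It depended on the pseudocount, with 1.35 for 1 FPKM and 3.34 for 0.01 FPKM. With G-CSF, *Steap4* still ranked only 10187th and 9792nd among all genes by FPKM.

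*Steap3*, the endosomal STEAP enzyme that reduces transferrin-derived iron in erythroid cells, behaved differently. It stood at 8.08 and 9.10 FPKM in the Control libraries and 8.89 and 9.52 in the G-CSF libraries, so that the groups overlapped. The log2 fold change was 0.10 (standard error 0.0933). *Steap3* had more FPKM than *Steap4* in every library, by a factor of 31.8 and 63.2 in the Control libraries and of 4.99 and 4.08 with G-CSF. The other genes of this family, *Steap1* and *Steap2*, were listed at 0 in all libraries, and the duodenal ferric reductase gene *Cybrd1* did not exceed 0.056 FPKM.

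The 250 bases upstream of the *Steap4* start annotated by RefSeq (GRCm38.p6, chr5:7960222-7960471, plus strand) are shown because *Steap4* had the largest fold difference of the 10 genes and because the G-CSF receptor signals through STAT proteins. Capitals mark the match to TTCNNNGAA, the palindromic letters of a STAT site, which reads alike on both strands.
Steap4 upstream: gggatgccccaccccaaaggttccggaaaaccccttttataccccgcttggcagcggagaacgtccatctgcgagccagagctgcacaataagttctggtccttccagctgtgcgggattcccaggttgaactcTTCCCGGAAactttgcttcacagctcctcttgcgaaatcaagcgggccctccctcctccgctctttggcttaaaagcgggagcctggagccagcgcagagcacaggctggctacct

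The match begins 116 bases before the start. The same letters occurred in 7.02% of the 32851 promoter windows of the table. Only the 250 bases before each start were searched, and the 50 bases after it were left out. Within these 250 bases, the letters did not occur in the windows of *Steap3*, *Tfrc*, *Slc11a1*, *Fth1* and *Ftl1*. *Slc11a2*, *Slc40a1*, *Hmox1* and *Hp* were not searched. A match of these letters does not measure the binding of a STAT protein. The part of this match or of STAT proteins in the *Steap4* values was not tested.

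Among the 12000 genes tested, the 5 whose values lay closest to those of *Steap4* were *Stfa2*, *Stfa3*, *Gm5416*, *Stfa1* and *BC100530*. Likeness was measured as the Euclidean distance over the 4 libraries in log2(FPKM + 0.1), each gene set to 0 at its Control mean, and the distances were 0.35 to 0.58. *Stfa1*, *Stfa2*, *Stfa3* and *BC100530* encode stefin A proteins, which inhibit cysteine proteases. They stood at much higher FPKM than *Steap4*, with means of 49.8 to 199 FPKM in the Control libraries and 453 to 1678 FPKM in the G-CSF libraries. *Gm5416* rests on about 5 and 5 reads in the Control libraries and 20 and 45 in the G-CSF libraries. It passed the filter only through the libraries in which it was high. The distances were computed with the pseudocount of 0.1 FPKM only, and the log2 fold change of *Steap4* depended on the pseudocount. Sequence shared among these 5 genes, which can affect their FPKM, was not examined.

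**Figure D1:**
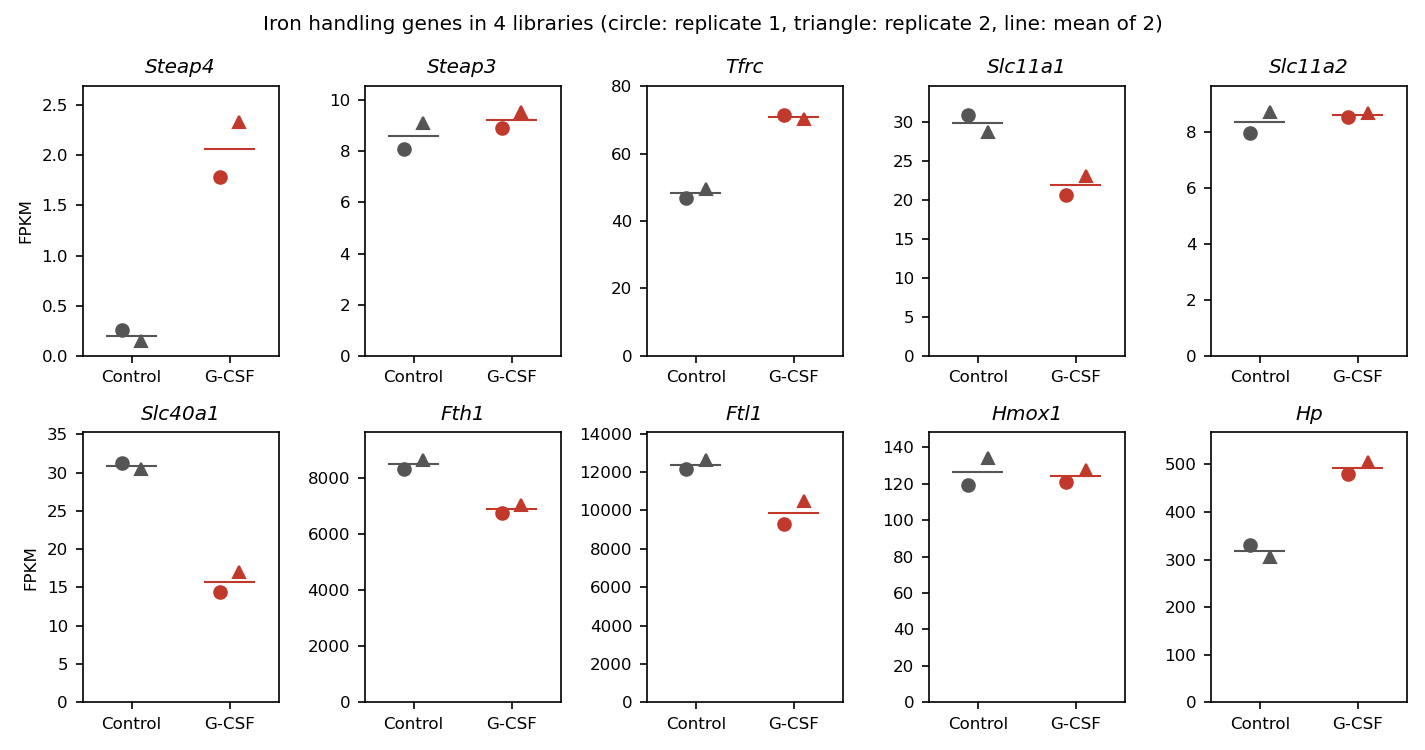
FPKM of the 10 iron handling genes in each of the 4 libraries, with a linear axis from 0 in each panel; circles are replicate 1, triangles replicate 2, and the line is the mean of the 2 libraries of a group. *Steap4*, *Tfrc* and *Hp* lie higher with G-CSF, *Slc11a1*, *Slc40a1*, *Fth1* and *Ftl1* lie lower, and the groups of *Steap3*, *Slc11a2* and *Hmox1* overlap.

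*Tfrc* (chr16:32608920-32632794, plus strand), the receptor that takes up transferrin-bound iron, was measured at 46.9 and 49.6 FPKM in the Control libraries and at 71.5 and 70.2 FPKM in the G-CSF libraries. The G-CSF libraries lay close together and well above both Control libraries. The Control mean was 48.2 ± 1.91 FPKM and the G-CSF mean was 70.9 ± 0.923 FPKM (SD, n = 2 per group), which differ by 0.56 on the log2 scale (standard error 0.0492). At least 2936 reads per library stand behind it. *Tfrc* is also a gene of dividing cells, and of 12 proliferation genes (*Mki67*, *Top2a*, *Cdk1* and others), 11 were higher with G-CSF at an adjusted p under 0.05 (limma, Benjamini-Hochberg). Their summed FPKM was 981 and 990 in the Control libraries and 1209 to 1239 in the G-CSF libraries. Of all genes tested, 12.5% were higher at the same adjusted p. Erythroid genes, which mark the cells with the strongest demand for transferrin iron, were near 0: the highest of the 10 analysed, the globin gene *Hba-a1*, did not exceed 1.45 FPKM. The part of cell division in the *Tfrc* values was not tested.

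The divalent metal transporter genes differed from each other. *Slc11a1* encodes NRAMP1, a protein of the phagosome of macrophages and neutrophils, whose activity in these cells was not measured. It stood at 30.9 and 28.7 FPKM in the Control libraries and 20.6 and 23.1 in the G-CSF libraries, both lower than either Control value, and the log2 fold change was -0.45 (standard error 0.0750). *Slc11a2* encodes DMT1, the transporter of endosomes after transferrin uptake. It stood at 7.96 and 8.72 FPKM in the Control libraries and at 8.54 and 8.66 FPKM in the G-CSF libraries, within the spread of the Control libraries, and its log2 fold change was 0.05 (standard error 0.0855). *Slc11a1* thus exceeded *Slc11a2* by a factor of 3.89 and 3.29 in the Control libraries and of 2.41 and 2.66 with G-CSF.

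*Slc40a1* (chr1:45908068-45926523, minus strand), which encodes ferroportin, the iron exporter of the cell membrane, was at 31.2 and 30.5 FPKM in the Control libraries and at 14.4 and 17.02 FPKM in the G-CSF libraries. Both G-CSF libraries lay well below both Control libraries. The Control mean was 30.9 ± 0.466 FPKM and the G-CSF mean was 15.7 ± 1.87 FPKM (SD, n = 2 per group). This is a difference of -49.1%, or -0.98 as log2 fold change (standard error 0.0867). It lay between -1.10 and -0.85 when each library was left out in turn. The ratio of *Tfrc* FPKM to *Slc40a1* FPKM does not depend on how the libraries are scaled. It was 1.5 and 1.62 in the Control libraries and 4.97 and 4.12 in the G-CSF libraries. Since *Tfrc* was higher and *Slc40a1* lower in both G-CSF libraries, these ratios had to lie apart and add no support. Ferroportin is abundant in macrophages that recycle red cells, so macrophage genes were read beside it. Of 12 such genes, 9 were tested, 5 of them (*Adgre1*, *Cd68*, *Mrc1*, *C1qb* and *Mertk*) were lower with G-CSF and 0 were higher at an adjusted p under 0.05 (limma), with 0 higher at an unadjusted p under 0.05. Their summed FPKM was 543 to 570 in the Control libraries and 444 to 463 in the G-CSF libraries. Of all genes tested, 11.4% were lower and 12.5% were higher at the same adjusted p. The list ranged from *Cd68*, with 303 FPKM or more in every library, to *Vsig4*, which was listed at 0 in every library. Of its markers of resident macrophages, *Cd5l* did not exceed 0.140 FPKM and *Spic* did not exceed 1.13 FPKM, while *Vcam1* lay between 1.19 and 1.49 FPKM, *Mertk* between 4.37 and 7.28 FPKM and *Marco* between 11.1 and 26.9 FPKM. The part of macrophages in the *Slc40a1* values was not tested.

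The ferritin genes were among the most abundant of all genes. *Ftl1*, the light chain that promotes the forming of the iron core, ranked 3rd in every library, and *Fth1*, the heavy chain that oxidizes iron, ranked 4th or 5th. *Fth1* stood at 8304 and 8634 FPKM in the Control libraries and at 6741 and 7035 FPKM in the G-CSF libraries. *Ftl1* stood at 12139 and 12612 FPKM in the Control libraries and at 9303 and 10469 FPKM in the G-CSF libraries. For both chains, each G-CSF value lay below each Control value, and the G-CSF means were lower by a similar share (-18.7% for *Fth1* and -20.1% for *Ftl1*). The log2 fold changes were -0.30 (standard error 0.0792) and -0.33 (standard error 0.0980). The ratio of *Ftl1* to *Fth1* was 1.46 in both Control libraries and 1.38 and 1.49 with G-CSF, so that the groups overlapped. Of the summed FPKM of all genes, both chains together held 3.05% and 3.31% in the Control libraries and 2.5% and 2.71% in the G-CSF libraries. The *Ftl1* values are uncertain, because 42.3% of the 75-base windows of its transcripts occur in transcripts of 6 other annotated genes, 4 of them pseudogenes, against 0.9% of the windows of *Fth1* and 0.0% of those of the other 8 genes.

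*Hmox1*, the inducible heme oxygenase, was at 119 and 134 FPKM in the Control libraries and at 121 and 127 FPKM in the G-CSF libraries. Both G-CSF values fell between the Control values, and the log2 fold change was -0.03 (standard error 0.0646). It was -0.11 without Control replicate 1, and its sign turned to give 0.06 without Control replicate 2 and 0.01 without G-CSF replicate 1. *Hp* (chr8:109575128-109579172, minus strand) encodes haptoglobin, an acute-phase protein that neutrophils also store in their granules. It was at 330 and 305 FPKM in the Control libraries and at 480 and 505 FPKM in the G-CSF libraries, higher in both G-CSF libraries. The Control mean was 318 ± 17.5 FPKM and the G-CSF mean was 493 ± 17.9 FPKM (SD, n = 2 per group). On the log2 scale they differ by 0.63 (standard error 0.0555), with at least 4900 reads behind each value.

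Haptoglobin lies in the secondary granules of neutrophils, and other granule genes were therefore read beside *Hp*. Of 10 secondary granule genes, 8 were lower and 0 were higher with G-CSF at an adjusted p under 0.05 (limma). The shares of all genes tested were 11.4% lower and 12.5% higher. At an unadjusted p under 0.05, 0 of the 10 secondary granule genes were higher. Their summed FPKM was 16760 and 16850 in the Control libraries and 10580 to 11880 in the G-CSF libraries. Of these genes, 2 encode proteins that bind iron or its carriers outside the cell; they are named for this role after their values were seen. *Ltf*, the gene of the iron-binding protein lactoferrin, was at 2073 and 2266 FPKM in the Control libraries and at 758 and 996 FPKM in the G-CSF libraries, with a log2 fold change of -1.32 (adjusted p = 0.0031, limma). *Lcn2*, whose protein binds bacterial iron carriers, was at 3390 and 3314 FPKM in the Control libraries and at 2148 and 2359 FPKM in the G-CSF libraries, with a log2 fold change of -0.57 (adjusted p = 0.00523, limma). All 6 primary granule genes, which mark earlier neutrophil precursors, were higher (summed FPKM of 843 to 971 in the Control libraries and 2120 to 2257 in the G-CSF libraries). *Hp* was higher with G-CSF too. Since *Hp* was chosen with this contrast known, nothing is read from a direction shared with the primary granule genes. The part of cell composition in the *Hp* values was not tested.

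Of the 10 genes, 3 had both G-CSF values above both Control values, against 33.6% of all genes tested, 4 had both below, against 32.6%, and 3 overlapped. In the fit across all genes, *Steap4* alone among the 10 passed an adjusted p of 0.05 together with a fold change over 2. That call was made higher for 0.533% and lower for 0.892% of all genes tested. At an adjusted p under 0.05 with any fold change, 3 of the 10 genes were higher and 3 were lower, against 12.5% and 11.4% of all genes tested. Since the genes were chosen with this contrast known, nothing is read from these counts.

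By FPKM in Control, which is scaled to transcript length, the order from the highest was *Ftl1*, *Fth1*, *Hp*, *Hmox1*, *Tfrc*, *Slc40a1*, *Slc11a1*, *Steap3*, *Slc11a2* and *Steap4*. The Control values of *Slc40a1* and *Slc11a1* overlapped, and so did those of *Steap3* and *Slc11a2*. With G-CSF, the order was the same except that *Slc11a1* stood above *Slc40a1*, with both of its values higher than either value of *Slc40a1*.

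**Figure D2:**
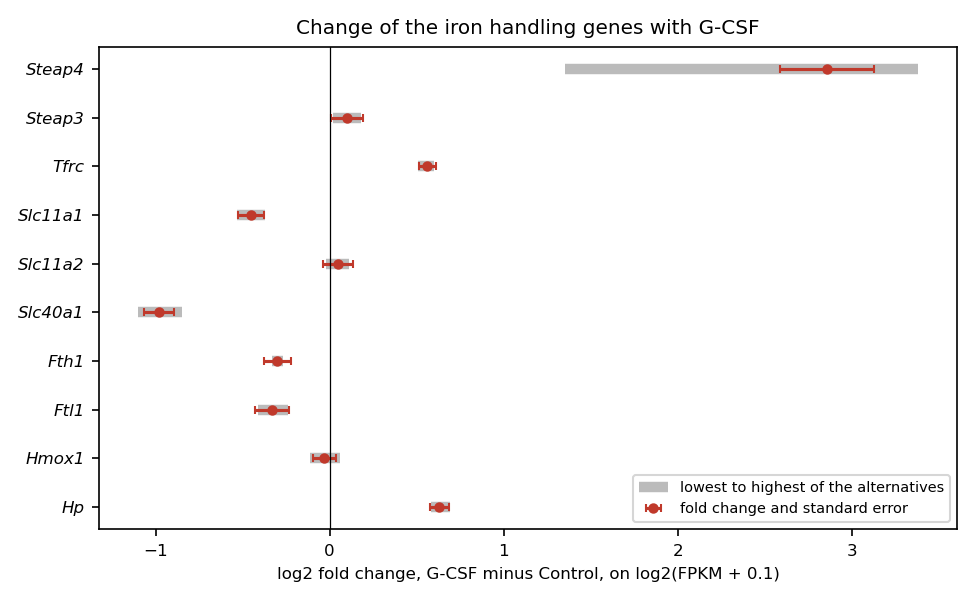
Log2 fold change of the 10 iron handling genes (G-CSF minus Control, on log2(FPKM + 0.1)) with its standard error, over the range of the values from the 12 alternative settings in grey (11 for *Steap4*, which drops out where 10 reads are required in every library). *Steap4* has the widest range, from 1.35 to 3.38, and the ranges of *Slc11a2* and *Hmox1* cross 0.

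Besides these 10 genes, 78 genes of iron and heme handling were gathered in 8 lists, to ask which of them differed between G-CSF and Control. Of them, 62 passed the filter on low values, 11 were higher and 6 were lower at an adjusted p under 0.05 (limma, Benjamini-Hochberg over 12000 genes). These are 17.7% and 9.68% of the genes tested in the lists, beside 12.5% and 11.4% of all genes. Their median log2 fold change was 0.04, beside 0.001 for all genes tested. With only 3 libraries in the fit, fewer genes passed: 3 were higher and 5 lower without Control replicate 1, 5 and 2 without Control replicate 2, 2 and 1 without G-CSF replicate 1, and 4 and 5 without G-CSF replicate 2. The lone library of a group is then assumed to vary like the others.

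Of 8 tested genes of heme synthesis, 3 were higher and 1 was lower. *Alas1*, the rate-limiting enzyme of heme synthesis outside the erythroid lineage, was at 185 and 193 FPKM in the Control libraries and at 237 and 232 FPKM in the G-CSF libraries. The difference was 0.31 on the log2 scale (standard error 0.0443, adjusted p = 0.00698, limma), and it passed under all 12 alternatives. *Urod*, an enzyme that follows later in the pathway, was higher by 0.40 on the log2 scale (adjusted p = 0.0156, limma). *Uros*, named after its value was seen because it was the only gene of the list that was lower, had a log2 fold change of -0.50 (adjusted p = 0.0210, limma). *Urod* lost its call without G-CSF replicate 1 (adjusted p = 0.0550), and *Uros* lost its call with voom (0.0506), without Control replicate 2 (0.0834) and without G-CSF replicate 1 (0.0753). Of the list, 4 tested genes did not pass. The erythroid enzyme gene *Alas2* did not exceed 0.216 FPKM.

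On the side of heme breakdown, 0 of 4 tested genes were higher and 2 were lower (limma, with 0 higher at an unadjusted p under 0.05). *Blvrb*, a biliverdin reductase, had a log2 fold change of -0.28 (adjusted p = 0.0440) and the heme-binding protein gene *Hebp1* one of -0.42 (adjusted p = 0.0412). *Blvrb* lost its call under 3 of the 12 alternatives, with no filter (adjusted p = 0.0834) and without Control replicate 2 or G-CSF replicate 1 (0.138 each). *Hebp1* lost its call under 5, with no filter (adjusted p = 0.0794), with voom (0.0551) and without Control replicate 2 (0.108), G-CSF replicate 1 (0.0813) or G-CSF replicate 2 (0.102). The values of *Blvra* (-0.08, adjusted p = 0.224) and *Hmox2*, the constitutive heme oxygenase, did not pass. In the list of mitochondrial iron and iron-sulfur clusters, all 22 genes were tested, 5 were higher and 0 were lower (1 lower at an unadjusted p under 0.05). These were *Hspa9*, a chaperone of cluster assembly (0.30, adjusted p = 0.0147), *Abcb8* (0.28, adjusted p = 0.0391), the assembly factor *Isca2* (0.21, adjusted p = 0.0442) and, named after their values were seen, *Nubp2* (0.18, adjusted p = 0.0448) and *Slc25a37*, the mitochondrial iron importer (0.27, adjusted p = 0.0459). Of the 12 alternatives, *Hspa9* lost its call under 1, without Control replicate 1 (adjusted p = 0.0503). *Abcb8* and *Slc25a37* lost theirs under 5, *Nubp2* under 6 and *Isca2* under 7. For *Abcb8*, *Isca2* and *Nubp2*, these include the omission of any single library (adjusted p of 0.0569 to 0.193), and for *Slc25a37* that of any library but Control replicate 2 (0.0790 to 0.188).

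Of the regulators, the IRP genes *Aco1* (22.6 and 24.0 FPKM in Control against 22.7 and 23.1 FPKM with G-CSF) and *Ireb2* (19.2 and 21.2 FPKM in Control against 20.8 and 20.7 FPKM with G-CSF) lay within the Control spread. *Fbxl5*, which marks IRP2 for degradation when iron is plentiful, was higher by 0.17 on the log2 scale (adjusted p = 0.0481, limma), a call lost under 7 of the 12 alternatives, among them the omission of any single library (0.0643 to 0.209). *Nfe2l2*, which encodes the NRF2 activator of *Hmox1*, ferritin and ferroportin genes, was lower, with a log2 fold change of -0.20 (adjusted p = 0.0272). *Bach1*, which encodes the heme-sensing repressor of the same genes, was lower too, with -0.27 (adjusted p = 0.0322). *Nfe2l2* lost its call without Control replicate 1 (adjusted p = 0.118) and without G-CSF replicate 1 (0.112). *Bach1* lost its call with no filter (adjusted p = 0.0534) and without Control replicate 1 (0.0527), Control replicate 2 (0.127) or G-CSF replicate 1 (0.124). The hepcidin gene *Hamp*, the hormone gene that controls ferroportin, was listed at 0 in every library, as were *Hfe2* and *Bmp6*.

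Among 9 tested genes of uptake, the only one called was *Tfr2*, a second transferrin receptor. It was at 0.023 and 0.130 FPKM in the Control libraries and at 0.346 and 0.414 FPKM in the G-CSF libraries. About 1 and 5 reads stand behind the Control values, and 12 and 18 behind the G-CSF values. *Tfr2* passed the filter only through the libraries in which it was high, so its call, which is 1 of the 11 higher genes and the only one with more than a fold of 2, is no support for a difference. The log2 difference was 1.51, and the call was lost with a pseudocount of 0.01 FPKM (adjusted p = 0.0523, limma) and with no filter (0.0553). It was also lost without Control replicate 1, G-CSF replicate 1 or G-CSF replicate 2, with log2 differences of 1.06, 1.61 and 1.41. The transporter gene *Slc39a8* (0.53, adjusted p = 0.0713) and the heme transporter gene *Slc48a1* (0.10, adjusted p = 0.154) did not pass, although *Slc39a8* did with voom (adjusted p = 0.0487). The scavenger receptor gene *Cd163*, which takes up haptoglobin bound to hemoglobin, was low, between 0.160 and 0.252 FPKM in all libraries. In the list of export and ferroxidases, 0 of 4 tested genes passed (limma, 1 at an unadjusted p under 0.05, *Cp*), with 0.69 for the ceruloplasmin gene *Cp* (adjusted p = 0.0871), 0.13 for *Abcg2* (adjusted p = 0.496) and 0.02 for the heme exporter *Flvcr1*, listed as *Mfsd7b* (adjusted p = 0.895). Of storage and iron chaperone genes, *Pcbp1*, which delivers iron to ferritin, was higher by 0.17 (adjusted p = 0.0288), a call lost when any single library was left out (0.0946 to 0.103), while *Pcbp2* (0.08, adjusted p = 0.204) and *Ncoa4*, the receptor for the breakdown of ferritin (-0.07, adjusted p = 0.364), did not pass. Of the other ferrireductase genes, *Cyb561a3*, which encodes a reductase of lysosomes, was lower, with means of 50.5 ± 1.80 FPKM in Control and 39.3 ± 1.77 FPKM in G-CSF libraries (SD, n = 2 per group) and a log2 fold change of -0.36 (adjusted p = 0.00861, limma), also under all 12 alternatives. *Cyb561* (-0.37, adjusted p = 0.213) and *Cyb561d2* (0.19, adjusted p = 0.352) did not pass.

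**Figure D3:**
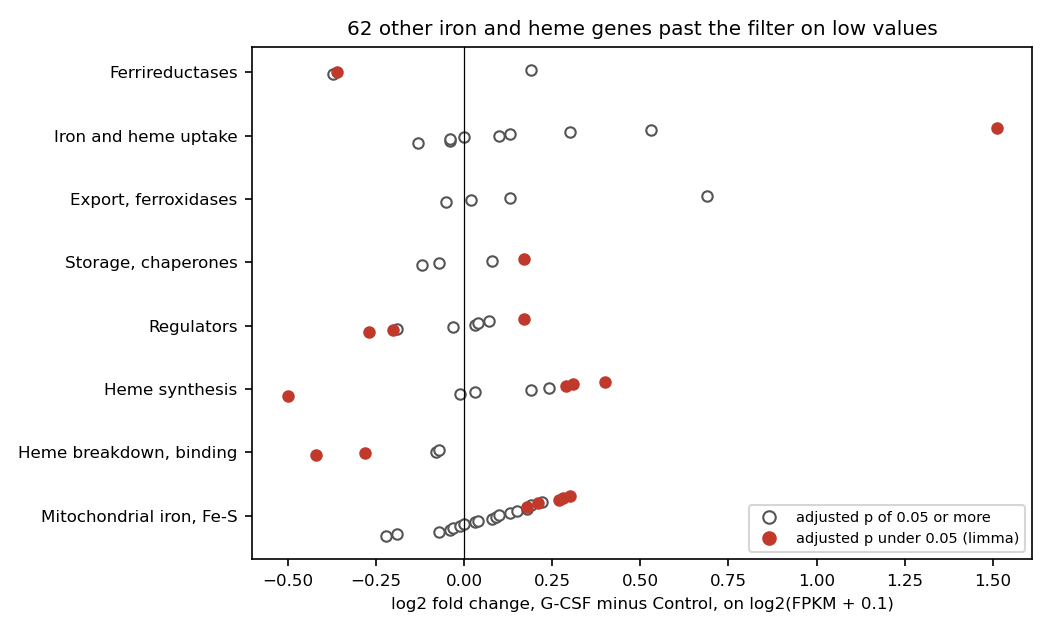
Log2 fold change (G-CSF minus Control, on log2(FPKM + 0.1)) of the 62 tested genes in 8 lists of iron and heme handling, 1 point per gene, filled red where the adjusted p from limma was under 0.05. The single point beyond 1 is *Tfr2*, and the list of heme synthesis holds 3 higher genes and 1 lower gene that passed.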

How the data were processed

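RNA of *in vitro* MDSCs was sequenced in 2 Control and 2 G-CSF libraries with a stranded mRNA kit. The deposited tables hold 1 value per gene and library, taken as FPKM computed by the authors. The submitters' processing notes name TopHat2 2.0.13, Bowtie2 2.2.3, SAMtools 0.1.19, Cufflinks 2.2.1 and mm10. The annotation is not given in the sources used here. How reads that match more than 1 gene were treated can move *Ftl1*. None of the 6 genes that share its windows is listed by name among the 24346 genes.

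Values were tested as log2(FPKM + 0.1) with limma 3.58.1 in R 4.3.3, using empirical Bayes moderation and Benjamini-Hochberg adjustment over 12000 genes. The pseudocount understates the change of low genes. A call required an adjusted p under 0.05, and, where stated, a fold change over 2. Reads were estimated from FPKM, the transcript lengths of GENCODE M21 and the step of a single read (about 12400000 to 15700000 mapped reads per library). Of the low values used for this, 67.1% to 72.7% came within 0.05 of a whole read, beside 10.0% by chance, so the reads are approximate. They were used for the filter and its stricter alternative, for voom and as rough counts beside some values. Genes needed 10 estimated reads in 2 libraries and 15 in all.

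The 10 genes and all lists (8 of iron and heme genes, 12 of cell types and pathways) were chosen with earlier results of these data known. Outside the 10 genes, the text names each iron gene called with a fold change over 2, up to 3 genes of the smallest p in each list, the 5 genes most like *Steap4* and, of each cell type list, the genes at 0 and the highest. Further genes were named after their values were seen. One gene that the rule names is not reported here. The study describes the libraries of a group as biological replicates (n = 2), without saying whether they came from separate animals. The alternatives changed the pseudocount, the filter, the scaling (upper quartile, median ratio), the test (voom), the replicate block and the libraries. The scripts were tested on simulated data. Figures were drawn with matplotlib 3.10.9.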

Additional observations from a re-analysis of the deposited data

How the results depend on the processing

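Of the other iron genes named in the text with an adjusted p under 0.05, and of *Ltf* and *Lcn2*, none changed sign under the 12 alternatives. *Steap4* and *Tfr2* could not be fitted with at least 10 reads in every library. *Steap4* has about 6 reads in Control replicate 2, and *Tfr2* about 1 and 5 in the Control libraries. Pseudocounts of 1 and 0.01 FPKM and voom gave log2 fold changes of 1.35, 3.34 and 3.38 for *Steap4*. Omitting single libraries gave a range of 2.60 to 3.13 for *Steap4*, -0.53 to -0.37 for *Slc11a1*, -1.10 to -0.85 for *Slc40a1*, -0.11 to 0.06 for *Hmox1* and 0.58 to 0.69 for *Hp*. Of all genes, 171 passed with a fold change over 2, 64 of them higher and 107 lower. With a pseudocount of 1 FPKM, 57 passed, 25 higher and 32 lower, since adding more shrinks the fold changes of low genes. With at least 10 reads in every library, 40 were higher. Leaving out libraries gave 42 to 75 higher genes. The 1 other iron gene past a fold change of 2 became 0 with either other pseudocount, with no filter and with at least 10 reads in every library, and 0 to 1 without 1 library. Of these iron genes at any fold change, 11 were higher and 6 were lower. No filter gave 5 and 3, upper-quartile scaling gave 7 higher, and leaving out libraries gave 2 to 5 higher and 1 to 5 lower. The cause was not tested.

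The replicate numbers mark no shared animal or day in the labels, and the deviations of same-numbered libraries correlated at 0.265 over 12000 genes. With the replicate block, 186 genes passed with a fold change over 2, among them the same 171 genes. The block brought 2 of the named iron genes past the threshold, *Slc39a8* (adjusted p = 0.0351) and *Cp* (adjusted p = 0.0455). With 2 libraries per group and 12400000 to 15700000 reads each, *Steap4* and *Tfr2* rest on few reads in Control.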

Other observations

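Further lists describe the cultures in which the iron genes were measured (limma, adjusted p under 0.05, beside 12.5% higher and 11.4% lower of all genes). Of 8 dendritic cell genes, 6 were lower with G-CSF, with a summed FPKM of 2706 to 3156 in Control and 1413 to 1751 with G-CSF, led by *Cd74*. Of 6 basophil and mast cell genes tested, 4 were lower (139 FPKM in Control and 87.2 to 96.1 with G-CSF, led by *Mcpt8*). Of 6 monocyte genes, 1 was higher and 1 was lower (1495 to 1530 and 1393 to 1443 FPKM, led by *Ly6c2*). Of 6 general myeloid genes, 3 were lower (59770 to 69380 and 47720 to 47850 FPKM, led by *S100a8*). Of 6 genes of G-CSF and GM-CSF signalling, 3 were lower, the receptor genes *Csf3r*, *Csf2ra* and *Csf2rb2* (list sum of 925 to 942 and 800 to 837 FPKM, led by *Csf2rb*). The list also holds *Socs3* and *Stat3*, which did not pass. Of 12 targets of NRF2, which also acts on ferritin genes and *Hmox1*, 1 was higher and 4 were lower (1413 to 1539 and 1407 to 1501 FPKM, led by *Prdx1*). The part of these cell types in the iron gene values was not tested.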
